A study of Homo sapiens with 16 samples.

Results

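The potassium channel genes were taken as the rows of the count table whose symbol begins with KCN, followed by further letters and digits, without the antisense, intronic and overlapping transcripts that carry their own suffix. The rule gave 87 of 27037 rows. Of these, 85 are genes for channel subunits and 2, KCNQ1OT1 and KCNQ1DN, are non-coding genes of the KCNQ1 locus that share the prefix. RNA had been sequenced from SK-N-BE(2)C, a human neuroblastoma line of adrenergic type with MYCN amplification, after 5 days in DMSO (the vehicle), in 10 µM all-trans retinoic acid (RA), in 1 µM palbociclib (PB, an inhibitor of CDK4/6) or in both agents at these doses (PB+RA), with 4 biological replicates in each of the 4 groups. The 16 samples come from a single line, so a replicate is a culture at another passage and not another tumour.

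Potassium channels let K+ leave or enter the cell along its gradient and so set the resting potential, end action potentials and limit repeated firing. Voltage-gated channels (KCNA to KCND, KCNH and KCNQ) open on depolarisation, calcium- and sodium-activated channels (KCNMA, KCNN and KCNT) open when these ions rise inside the cell, inward rectifiers (KCNJ) and tandem-pore channels (KCNK) hold the resting potential, and accessory subunits (KCNAB, KCNE, KCNIP and KCNMB) or silent subunits (KCNF, KCNG, KCNS and KCNV) alter the pores they join. In maturing neurons the mix of these channels changes with the firing pattern, and in neuroblastoma KCNH2 (hERG) is a long-known current.

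The libraries held 19515779 to 31620821 counts. The 9 markers of adrenergic neuroblastoma that were looked up were expressed in each library, with a summed level of 5191 to 5634 CPM (counts scaled to a library total of 1000000) in DMSO, 4980 to 5924 in RA, 8067 to 9269 in PB and 6457 to 8560 in PB+RA. The 8 mesenchymal markers tested summed to 1107 to 1359 CPM in DMSO, 1851 to 2300 in RA, 933 to 1079 in PB and 1145 to 1578 in PB+RA, while the Schwann cell marker SOX10 had at most 3 counts in any library. The part of this shift between marker lists in the channel results was not tested.

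Of the 87 genes, 51 passed the filter on low counts (50 channel genes and KCNQ1OT1) and were tested among the 15415 genes that passed, in the edgeR quasi-likelihood fit over the 16 samples. A call required a log2 fold change beyond 0.5 in either direction together with an adjusted p (Benjamini-Hochberg) below 0.05. The filter depends on the level in the groups, so a gene that passed through a treated group alone had to be higher there, and these counts describe the tested genes without standing for the family as a whole.

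More of the tested channel genes were called higher than lower under each treatment. In PB, 20 of the 51 tested genes were called higher and 3 lower, beside 16.9% and 11.3% of all tested genes. The 20 include the non-coding KCNQ1OT1, so 19 of the 50 channel genes were higher in PB. In RA, 15 were higher and 4 lower, beside 10.8% and 2.54%. In PB+RA, 23 were higher and 7 lower, beside 24.0% and 17.9%. As shares of the 51, the genes called higher came to 39.2%, 29.4% and 45.1%, and those called lower to 5.88%, 7.84% and 13.7%. The median log2 fold change over the 51 genes was 0.62 in PB, 0.24 in RA and 0.58 in PB+RA, whereas the median over all tested genes was 0.03, 0.01 and 0.04. The 3 comparisons share the DMSO samples. With a correction for GC content and exon length the split moved to 16 higher and 5 lower in PB and to 10 and 8 in RA, and it was 20 and 9 in PB+RA. Counts and CPM give a gene's share of the library, so more transcript per cell and more cells with the transcript cannot be told apart in these bulk samples.

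**Figure D1:**
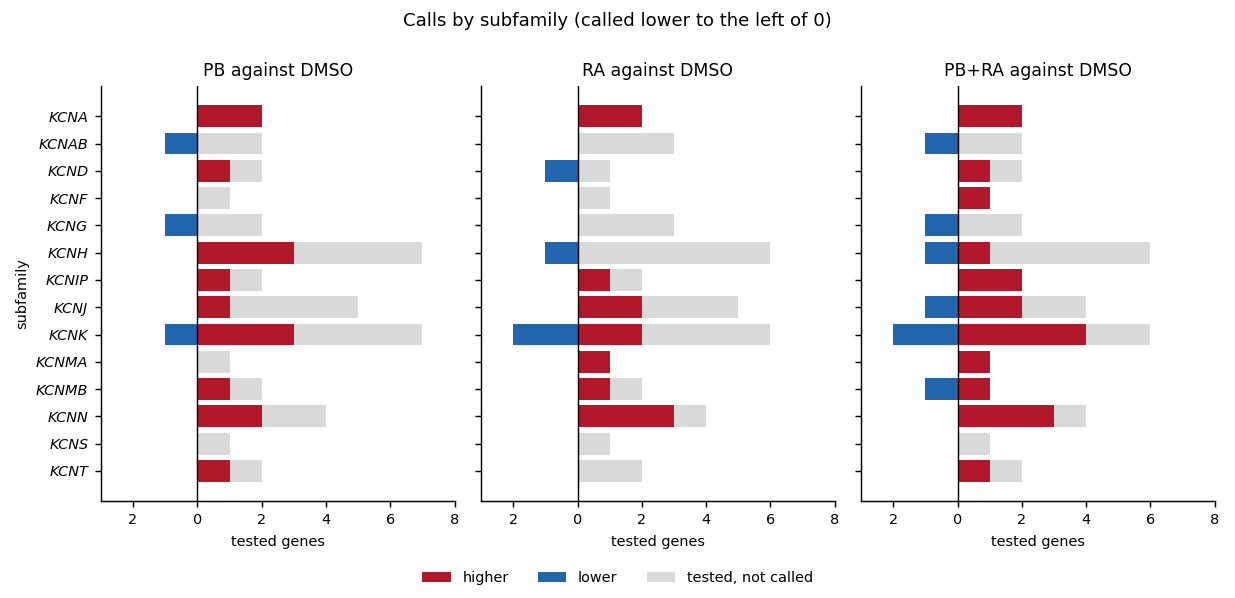
Number of tested channel genes called higher (red, to the right of 0), called lower (blue, to the left of 0) or not called (grey) in the subfamilies plotted, for PB, RA and PB+RA against DMSO. The 2 KCNA genes rose under each treatment, and KCNK held calls in both directions under each treatment.

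Subfamilies differed in the direction of their calls. In KCNA (2 tested of 6), both genes were higher under each treatment, and the summed level of the subfamily was 38.8 ± 5.40 CPM (mean ± SD, n = 4, as for all means below) in DMSO, 81.8 ± 6.89 in RA, 71.2 ± 11.1 in PB, and 115.7 ± 7.39 with both agents. In KCNN, all 4 genes were tested, and 2 were higher in PB, 3 in RA and 3 in PB+RA, at a low sum of 4.10 ± 0.591 CPM in DMSO and 7.44 to 7.46 in the treated groups. Each of these KCNN counts includes KCNN2, which passed the filter on low counts through treated samples alone. In KCND, 2 of 3 genes were tested, with 1 called higher in PB and 1 called lower in RA.

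In KCNH all 7 genes were tested, with 3 called higher in PB, 1 lower in RA, and 1 in each direction in PB+RA. Its summed level was 405 ± 18.2 CPM in DMSO, 334 ± 15.2 in RA, 625 ± 49.3 in PB and 488 ± 61.8 with both agents. The inward rectifiers (KCNJ, 5 tested of 13) and the tandem-pore channels (KCNK, 8 tested of 13) had calls in both directions. KCNJ summed to 150.3 ± 12.5 CPM in DMSO and 115 ± 8.38 in PB+RA, and KCNK to 112 ± 11.8 in DMSO, 67.7 ± 7.91 in RA, 76.7 ± 2.90 in PB and 79.5 ± 7.17 with both agents. Most of the KCNH, KCNJ and KCNK sums came from a single gene each. Without treatment KCNH2 averaged 333 CPM, KCNJ8 132 and KCNK3 99.8. The lower KCNK sum therefore reflects KCNK3 and not the subfamily. The median log2 fold change of the 8 tested KCNK genes was positive, at 0.21 for RA, 0.54 for PB and 0.78 for both agents. Over the 85 channel genes the sum was 1295 ± 22.6 CPM in DMSO, 1290.5 ± 35.1 in RA, 2136 ± 142 in PB and 2127 ± 233 with both agents. KCNT1 and KCNH2 together made up 41.2% ± 2.699 of that sum in DMSO, 31.6% ± 2.16 in RA, 46.7% ± 1.53 in PB and 41.1% ± 2.79 with both agents.

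Levels were set between genes per kb of exon. In DMSO the leading genes were KCNJ8 at 52.5 ± 5.45 CPM per kb and KCNH2 at 46.2 ± 3.77, with spreads that met. KCNK3 at 16.1 ± 2.07 and KCNT1 at 12.9 ± 1.34 came next, again with spreads that met. In PB the order was KCNH2 (70.7 ± 5.52 CPM per kb), KCNJ8 (50.8 ± 4.27) and KCNT1 (31.2 ± 2.51). In PB+RA KCNH2 stood at 54.4 ± 7.603 CPM per kb, and KCNT1 (31.2 ± 6.44) and KCNJ8 (30.2 ± 2.099) did not differ beyond their spread. KCNA3 rose from 3.75 ± 0.521 CPM per kb in DMSO to 10.1 ± 0.648 in PB+RA.

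**Figure D2:**
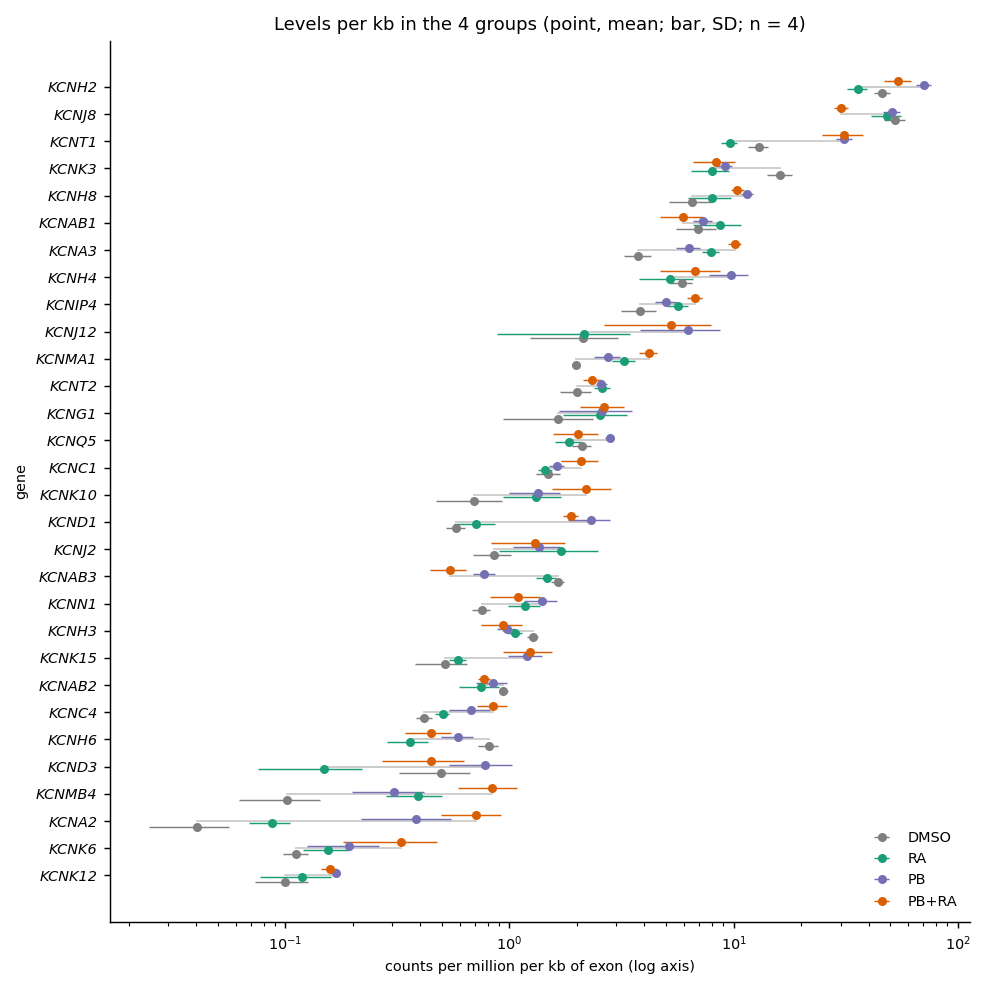
Mean level of 30 channel genes that were tested and reached a mean of 2 CPM in at least 1 group, as CPM per kb of exon on a log axis, in DMSO, RA, PB and PB+RA. Points are means and bars are SD (n = 4). KCNH2 and KCNJ8 lie at the top, and KCNA2 shows the widest spacing of its group means.

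KCNA2 and KCNA3 encode delayed rectifiers of the Shaker type, which sit on axons and shape the threshold for firing. KCNA2 (chr1:111062459-111174096, minus strand, GRCh37, as for the other genes) was at 0.7801, 1.14, 0.443 and 0.658 CPM in DMSO, 1.76, 2.02, 1.47 and 1.26 in RA, 9.27, 10.4, 4.66 and 4.39 in PB, and 12.7, 18.6, 9.01 and 12.8 in PB+RA, in the order of replicates 1 to 4. PB and PB+RA lay above DMSO and RA with no overlap, and RA lay above DMSO with no overlap. On the log2 scale the gene rose by 3.26 ± 0.35 (adjusted p = 1.13e-06) in PB, 1.12 ± 0.38 (adjusted p = 0.03) in RA and 4.12 ± 0.35 (adjusted p = 3.25e-08) in PB+RA, each with its standard error. The rise in PB+RA was the largest among the 51 tested genes in that comparison. PB+RA also exceeded PB, by 0.86 ± 0.28 (adjusted p = 0.0254), and RA, by 2.998 ± 0.32 (adjusted p = 9.47e-07). The RA call was lost with the GC and length correction (0.90) and on leaving out any of DMSO replicates 1, 3 and 4 and RA replicates 1 and 2 (0.90 to 1.12), and the call against PB on leaving out any of PB replicates 3 and 4 and PB+RA replicate 2 (0.65 to 0.72).

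KCNA3 (chr1:111196182-111217562, minus strand), its neighbour on the chromosome and the channel best known from T cells, was at 32.8, 45.04, 38.7 and 35.5 CPM in DMSO, 76.5, 89.7, 79.5 and 74.9 in RA, 69.97, 71.8, 57.5 and 56.6 in PB, and 92.6, 104, 107 and 106 in PB+RA. The 4 groups did not overlap, with RA above PB and PB+RA above both. Log2 fold changes against DMSO were 0.75 ± 0.10 (adjusted p = 8.74e-06) in PB, 1.07 ± 0.10 (adjusted p = 1.12e-06) in RA and 1.40 ± 0.10 (adjusted p = 2.89e-09) in PB+RA. PB+RA exceeded PB by 0.65 ± 0.10 (adjusted p = 8.31e-05), a call that was lost in replicates 1 and 2 alone (0.45). Against RA the difference was 0.33, which stayed under the fold minimum. The other KCNA genes of the table, KCNA4, KCNA6, KCNA7 and KCNA10, had at most 4 counts in any library and were undetermined.

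The 250 bases upstream of the annotated start are printed for KCNA2, which rose most, for KCNT1, the leading gene of the sodium-activated kind, and for KCNK3 and KCNJ8, which fell. They come from RefSeq (GRCh38.p14) and read 5′ to 3′ along the gene. Capitals mark matches on either strand to AGGTCA (the half-site of retinoid receptors), to the E-boxes CACGTG and CAGCTG, or to the E2F octamers TTTGGCGC and TTTCGCGC. KCNA2 is at chr1:110631441-110631690, minus strand, KCNT1 at chr9:135701935-135702184, plus strand, KCNK3 at chr2:26692472-26692721, plus strand, and KCNJ8 at chr12:21774707-21774956, minus strand.
KCNA2: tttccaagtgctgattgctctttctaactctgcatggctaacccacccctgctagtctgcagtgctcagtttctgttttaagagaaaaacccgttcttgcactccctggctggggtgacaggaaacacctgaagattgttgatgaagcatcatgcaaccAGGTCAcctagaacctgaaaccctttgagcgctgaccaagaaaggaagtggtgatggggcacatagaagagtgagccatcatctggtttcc
KCNT1: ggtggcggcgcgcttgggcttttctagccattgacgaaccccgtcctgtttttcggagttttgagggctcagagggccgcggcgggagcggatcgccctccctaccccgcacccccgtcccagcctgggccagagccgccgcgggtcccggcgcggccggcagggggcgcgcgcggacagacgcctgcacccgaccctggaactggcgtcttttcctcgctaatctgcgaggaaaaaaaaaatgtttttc
KCNK3: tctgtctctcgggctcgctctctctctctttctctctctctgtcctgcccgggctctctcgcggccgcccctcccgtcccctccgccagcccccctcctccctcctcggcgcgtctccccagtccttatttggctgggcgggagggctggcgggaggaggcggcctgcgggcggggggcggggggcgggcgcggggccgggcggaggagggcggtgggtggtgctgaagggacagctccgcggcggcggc
KCNJ8: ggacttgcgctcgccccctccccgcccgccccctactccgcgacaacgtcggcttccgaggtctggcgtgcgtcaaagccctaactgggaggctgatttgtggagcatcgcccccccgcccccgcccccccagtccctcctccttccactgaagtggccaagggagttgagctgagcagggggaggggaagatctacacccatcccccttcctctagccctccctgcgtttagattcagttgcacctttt
Of these windows, that of KCNA2 held the single marked match, an AGGTCA that begins 91 bases before the start. Such windows were found for 37 of the 51 tested genes. AGGTCA or its reverse complement stood in 2 of the 37 (KCNA2 and KCNJ14) and in 12.1% of all 27305 windows of that length. CAGCTG stood in 6 of the 37 (13.8% of all windows), CACGTG in 2 (6.49%), and an E2F octamer in 1 (0.996%). A match describes letters in a window and not a bound site.

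The KCNC genes encode channels that close fast and allow rapid firing. KCNC4 (chr1:110752936-110825722, plus strand) was at 11.4, 11.9, 10.2 and 9.95 CPM in DMSO, 13.3, 14.2, 13.2 and 11.8 in RA, 20.4, 21.1, 15.1 and 13.9 in PB, and 26.5, 22.3, 20.97 and 18.4 in PB+RA. Samples of PB and PB+RA lay above DMSO with no overlap. It rose by 0.70 ± 0.14 (adjusted p = 0.000367) in PB and 0.99 ± 0.13 (adjusted p = 6.01e-06) in PB+RA, against 0.26 ± 0.14 (adjusted p = 0.145) in RA. PB+RA exceeded RA by 0.73 ± 0.13 (adjusted p = 0.000214). The PB call was lost with the GC and length correction (0.43), with that correction and the replicate block together (0.43) and in replicates 3 and 4 alone (0.48). KCNC1 was at 25.2, 21.6, 19.2 and 20.1 CPM in DMSO, 23.02, 20.4, 20.6 and 19.4 in RA, 24.5, 25.3, 21.9 and 22.1 in PB, and 37.6, 31.4, 25.2 and 26.1 in PB+RA. PB+RA lay above DMSO and RA with no overlap. The lowest PB+RA sample, at 25.21 CPM, was just above the highest DMSO sample, at 25.18. Against DMSO, PB+RA gave 0.46 (adjusted p = 0.00246), under the fold minimum. That difference was called in replicates 1 and 2 alone (0.53) and on leaving out any of DMSO replicate 1 and PB+RA replicates 3 and 4 (0.51 to 0.53). Against PB it was 0.33 (adjusted p = 0.0336). KCNC1 was called higher in PB+RA than in RA (0.51 ± 0.12 (adjusted p = 0.00153)). That call was lost with the GC and length correction (0.41), with the replicate block (0.499), with that correction and the replicate block together (0.40), without the filter on low counts (0.48), in replicates 3 and 4 alone (0.34) and on leaving out any of PB+RA replicates 1 and 2 and RA replicates 2 and 4 (0.36 to 0.49).

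KCND1 and KCND3 encode pores of the fast A-type current, which delays firing. KCND1 (chrX:48818639-48828251, minus strand) was at 3.48, 3.59, 3.099 and 3.91 CPM in DMSO, 3.19, 5.14, 4.03 and 4.96 in RA, 16.99, 16.4, 11.9 and 11.04 in PB, and 12.6, 11.4, 11.03 and 10.7 in PB+RA. PB and PB+RA lay far above DMSO and RA, with no overlap. The gene rose by 2.002 ± 0.16 (adjusted p = 3.59e-08) in PB and 1.68 ± 0.16 (adjusted p = 9.71e-08) in PB+RA, while RA gave 0.29 ± 0.16 (adjusted p = 0.181). PB+RA was above RA by 1.38 ± 0.16 (adjusted p = 1.59e-06).

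KCND3 (chr1:112313284-112532290, minus strand) was at 12.1, 12.6, 5.79 and 7.78 CPM in DMSO, 3.97, 4.21, 1.696 and 1.62 in RA, 20.4, 17.9, 11.2 and 11.04 in PB, and 10.7, 12.5, 5.66 and 5.89 in PB+RA. RA lay below each of the other groups, and replicates 1 and 2 were higher than replicates 3 and 4 in each of the 4 groups. Against DMSO it fell by 1.74 ± 0.38 (adjusted p = 0.00288) in RA. PB gave 0.67 ± 0.35 (adjusted p = 0.126) and PB+RA -0.16 ± 0.36 (adjusted p = 0.714). PB+RA was above RA by 1.58 ± 0.39 (adjusted p = 0.00289). With the replicate number as a block, KCND3 was also called higher in PB, by 0.68 (adjusted p = 4.26e-06), and lower in PB+RA than in PB, with -0.85 (adjusted p = 6.76e-07). Its exons overlap those of DDX20 on the other strand (54.4 CPM on average), which changed by 0.01, -0.14 and -0.30 in PB, RA and PB+RA. The strand setting of the counting is not given in the sources used here, so reads of such a pair may be shared.

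**Figure D3:**
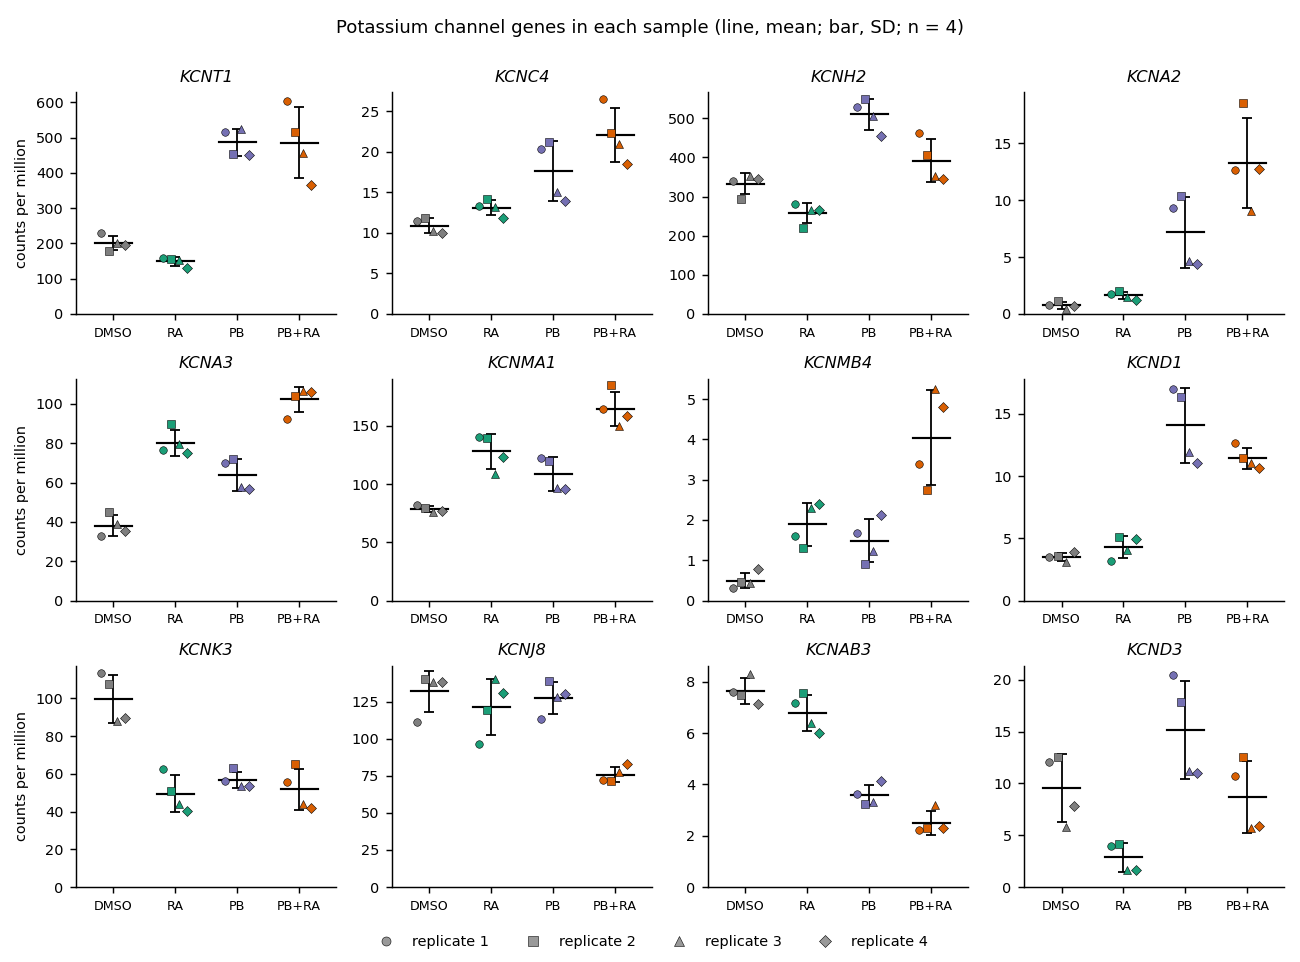
CPM of 12 channel genes in each of the 16 samples. Symbols give the replicate number, horizontal lines the mean and bars the SD (n = 4). KCNT1, KCNC4, KCNA2 and KCND1 lie higher in PB and PB+RA than in DMSO, KCNK3 lies lower in each treated group, KCNJ8 lower in PB+RA and KCND3 lower in RA.

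Among the accessory subunits, KCNAB3, a cytoplasmic beta subunit of KCNA channels, fell. KCNAB3 (chr17:7825177-7833174, minus strand) was at 7.59, 7.500, 8.32 and 7.12 CPM in DMSO, 7.17, 7.56, 6.41 and 5.99 in RA, 3.65, 3.24, 3.33 and 4.12 in PB, and 2.23, 2.303, 3.19 and 2.31 in PB+RA. PB and PB+RA lay below DMSO and RA with no overlap. It fell by 1.09 ± 0.13 (adjusted p = 2.78e-06) in PB and by 1.63 ± 0.13 (adjusted p = 1.52e-08) in PB+RA, and gave -0.18 ± 0.12 (adjusted p = 0.279) in RA. PB+RA was lower than PB by 0.54 ± 0.14 (adjusted p = 0.00559) and lower than RA by 1.45 ± 0.13 (adjusted p = 1.39e-07). The difference from PB was no longer called in replicates 3 and 4 alone (-0.45) and on leaving out any of PB replicate 4 and PB+RA replicates 1 and 4 (-0.49 to -0.47). KCNAB1, of the same family, was at 43.7, 35.8, 57.8 and 51.8 CPM in DMSO, 55.5, 41.5, 75.1 and 65.01 in RA, 51.3, 42.9, 54.1 and 50.4 in PB, and 35.8, 30.9, 49.4 and 46.9 in PB+RA. The groups overlapped, and the difference between PB+RA and RA, -0.56 ± 0.19 (adjusted p = 0.0192), was called but was lost on leaving out any of PB+RA replicate 2 and RA replicates 3 and 4 (-0.499 to -0.41). KCNAB2, at means of 12.8 to 16.1 CPM, gave -0.34 ± 0.13 (adjusted p = 0.0508) in RA and -0.31 ± 0.13 (adjusted p = 0.0433) in PB+RA. It was called lower in RA with the GC and length correction (-0.57), with that correction and the replicate block together (-0.57) and in replicates 3 and 4 alone (-0.53), and lower in PB+RA with the GC and length correction (-0.65) and with that correction and the replicate block together (-0.65).

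KCNIP4, a calcium-binding partner of KCND pores, was at 16.1, 19.6, 13.9 and 13.4 CPM in DMSO, 24.2, 25.96, 22.9 and 20.2 in RA, 21.7, 23.2, 18.96 and 18.6 in PB, and 25.01, 30.2, 27.96 and 27.3 in PB+RA. RA and PB+RA lay above DMSO with no overlap. It rose by 0.56 ± 0.12 (adjusted p = 0.00148) in RA and 0.79 ± 0.12 (adjusted p = 1.6e-05) in PB+RA, and PB gave 0.39 ± 0.12 (adjusted p = 0.00973). The RA call was lost in replicates 1 and 2 alone (0.49) and on leaving out any of DMSO replicates 3 and 4 and RA replicate 2 (0.48 to 0.496). Its exons overlap those of PACRGL on the other strand, which averaged 31.4 CPM against 21.8. KCNIP2, a partner of the same kind, was called higher in PB by 0.67 ± 0.19 (adjusted p = 0.00737) and in PB+RA by 0.63 ± 0.19 (adjusted p = 0.00814) at group means of at most 1.98 CPM. The PB call was lost in replicates 1 and 2 alone (0.60) and the PB+RA call in replicates 3 and 4 alone (0.51). PB+RA exceeded RA by 0.51 ± 0.19 (adjusted p = 0.0316), lost with the GC and length correction (0.497), with that correction and the replicate block together (0.498), without the filter on low counts (0.48), in replicates 3 and 4 alone (0.15) and on leaving out any of PB+RA replicates 1 and 2 and RA replicates 1 and 2 (0.37 to 0.4998).

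Silent subunits form no channel alone. KCNG3 was lower in PB+RA than in DMSO by 1.92 ± 0.33 (adjusted p = 8.85e-05) on the log2 scale. It was at 0.159, 0.266, 0.242 and 0.205 CPM in PB+RA and 0.567, 0.856, 0.791 and 1.08 in DMSO, with no overlap, which rests on 20 counts over the 4 PB+RA libraries and 90 over the 4 in DMSO. KCNG4 was called lower in PB by 2.16 ± 0.67 (adjusted p = 0.0124) from 6 counts over the 4 PB libraries and 36 in DMSO, a call lost in replicates 1 and 2 alone (-1.70). KCNF1 was called higher in PB+RA by 1.45 ± 0.49 (adjusted p = 0.0154) at means of at most 0.925 CPM, and was lost in replicates 3 and 4 alone (0.40) and on leaving out PB+RA replicate 2 (1.04). The call of KCNF1 in PB+RA against RA (1.19 ± 0.49 (adjusted p = 0.0482)) was lost without the filter on low counts (1.16), under DESeq2 (1.1995), in replicates 3 and 4 alone (0.47) and on leaving out any of PB+RA replicates 1, 2 and 3 and RA replicates 1, 2 and 3 (0.79 to 1.28).

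KCNG1, another silent subunit, had a mean of 8.89 CPM in DMSO, 13.8 in RA, 14.002 in PB and 14.3 with both agents. It gave 0.65 ± 0.32 (adjusted p = 0.0991) in PB, 0.62 ± 0.32 (adjusted p = 0.148) in RA and 0.66 ± 0.32 (adjusted p = 0.0836) in PB+RA, none of them called. The replicate block, which groups the samples by their number, called it higher in PB by 0.67 (adjusted p = 4e-05), in RA by 0.64 (adjusted p = 0.000112) and in PB+RA by 0.71 (adjusted p = 1.32e-05). It was also called in replicates 1 and 2 alone in each of these comparisons, and without DMSO replicate 3 in PB and PB+RA. KCNS1 was not called in the unblocked fit, at means of at most 0.410 CPM.

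The KCNH genes encode channels of the EAG, ERG and ELK kinds. KCNH2 (chr7:150642049-150675409, minus strand), the hERG pore, was at 339, 293, 353 and 345 CPM in DMSO, 281, 221, 265 and 265 in RA, 529, 548, 506 and 456 in PB, and 463, 407, 353 and 345 in PB+RA. PB lay above DMSO, and RA below it, with no overlap, while PB+RA overlapped both DMSO and PB. The gene rose by 0.62 ± 0.10 (adjusted p = 5.73e-05) in PB. In RA the change was -0.37 ± 0.10 (adjusted p = 0.00727) and in PB+RA 0.21 ± 0.10 (adjusted p = 0.0686). PB+RA exceeded RA by 0.58 ± 0.10 (adjusted p = 9.64e-05). The PB call was lost with the GC and length correction (0.46), with that correction and the replicate block together (0.46) and in replicates 3 and 4 alone (0.42), and the call of PB+RA against RA with the GC and length correction (0.49), with that correction and the replicate block together (0.497), in replicates 3 and 4 alone (0.38) and on leaving out any of PB+RA replicate 1 and RA replicate 2 (0.47 to 0.497). The fall in RA was called with the GC and length correction (-0.54) and with that correction and the replicate block together (-0.55), and PB+RA was called lower than PB with the GC and length correction (-0.51), with that correction and the replicate block together (-0.51) and on leaving out PB+RA replicate 1 (-0.503).

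KCNH8, an ELK channel, was at 42.9, 49.9, 30.7 and 35.7 CPM in DMSO, 42.7, 64.3, 46.9 and 40.8 in RA, 74.8, 69.9, 70.6 and 64.1 in PB, and 63.5, 59.4, 69.1 and 61.3 in PB+RA. Both groups with PB lay above DMSO with no overlap. Its rise was 0.81 ± 0.14 (adjusted p = 0.000184) in PB and 0.64 ± 0.14 (adjusted p = 0.000941) in PB+RA, the latter lost in replicates 1 and 2 alone (0.38). KCNH4, also an ELK channel, was at 23.7, 24.7, 19.6 and 20.8 CPM in DMSO, 21.3, 25.96, 18.01 and 13.3 in RA, 41.6, 44.3, 31.4 and 29.9 in PB, and 32.999, 30.5, 20.002 and 17.9 in PB+RA. PB lay above DMSO with no overlap, and PB+RA overlapped DMSO. It was called in PB (0.73 ± 0.22 (adjusted p = 0.00972)). It was also called lower in PB+RA than in PB with the GC and length correction (-0.62), with the replicate block (-0.58), with that correction and the replicate block together (-0.62), under DESeq2 (-0.56), in replicates 3 and 4 alone (-0.71) and on leaving out any of PB replicate 4 and PB+RA replicates 1 and 2 (-0.72 to -0.65), and gave -0.56 ± 0.21 (adjusted p = 0.0515) otherwise.

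KCNH6, an ERG channel, went down. It was at 3.33, 3.87, 3.07 and 3.33 CPM in DMSO, 1.92, 1.54, 1.36 and 1.22 in RA, 1.89, 2.56, 2.76 and 2.72 in PB, and 2.03, 2.35, 1.78 and 1.33 in PB+RA. RA and PB+RA lay below DMSO with no overlap. It fell by 1.17 ± 0.19 (adjusted p = 0.000202) in RA and by 0.88 ± 0.19 (adjusted p = 0.000581) in PB+RA, and PB gave -0.45 ± 0.18 (adjusted p = 0.0484), which was called with the GC and length correction (-0.55), with that correction and the replicate block together (-0.55), in replicates 1 and 2 alone (-0.71) and on leaving out any of DMSO replicate 3 and PB replicates 3 and 4 (-0.53 to -0.52). KCNH1 gave 0.45 ± 0.26 (adjusted p = 0.148) in PB and 0.46 ± 0.25 (adjusted p = 0.118) in PB+RA, and was called in both without DMSO replicate 4. KCNH3 gave -0.38 ± 0.13 (adjusted p = 0.0235) in PB and -0.45 ± 0.13 (adjusted p = 0.00709) in PB+RA. It was called lower in PB with the GC and length correction (-0.51) and with that correction and the replicate block together (-0.51), and lower in PB+RA with the GC and length correction (-0.63), with that correction and the replicate block together (-0.62), in replicates 3 and 4 alone (-0.60) and on leaving out any of PB+RA replicates 1 and 3 (-0.61 to -0.51). The exons of KCNH3 overlap those of MCRS1 on the other strand by 43 bases, so reads may be shared. MCRS1 averaged 110.8 CPM against 4.76 for KCNH3, and changed by -0.37 in PB and -0.51 in PB+RA.

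KCNH5 was called higher in PB+RA than in RA (1.30 ± 0.52 (adjusted p = 0.0444)), at 24 and 10 counts summed over the 4 libraries. That call was lost without the filter on low counts (1.27), under DESeq2 (1.35), in replicates 3 and 4 alone (1.57) and on leaving out any of PB+RA replicates 1 and 4 and RA replicates 1, 2, 3 and 4 (0.98 to 1.45). It was called lower in RA than in DMSO with the GC and length correction (-1.37), with the replicate block (-1.26) and with that correction and the replicate block together (-1.35).

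KCNQ5, a pore of the M-current, which damps repeated firing in neurons, had means of 20.9 to 31.6 CPM and was called in no comparison of the unblocked fit. PB+RA differed from PB by -0.498 ± 0.13 (adjusted p = 0.00704), and this was called with the GC and length correction (-0.55), with the replicate block (-0.52), with that correction and the replicate block together (-0.56), in replicates 1 and 2 alone (-0.80) and on leaving out any of PB replicates 2 and 4 and PB+RA replicates 3 and 4 (-0.59 to -0.51). The change in PB, 0.41 ± 0.13 (adjusted p = 0.0147), was called in replicates 1 and 2 alone (0.51). KCNQ1 and KCNQ3 had at most 5 counts in any library and were undetermined.

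KCNQ1OT1, the imprinted non-coding RNA of the KCNQ1 locus and no channel gene, was at 1.91, 1.304, 2.06 and 1.86 CPM in DMSO, 2.09, 2.14, 1.997 and 1.62 in RA, 3.52, 3.87, 1.66 and 2.67 in PB, and 2.74, 2.26, 1.37 and 2.05 in PB+RA. PB overlapped DMSO through its replicate 3. It was called in PB (0.71 ± 0.25 (adjusted p = 0.0222)), and that call was lost with the GC and length correction (0.32), with that correction and the replicate block together (0.30), in replicates 3 and 4 alone (0.11) and on leaving out any of DMSO replicate 2 and PB replicates 1 and 2 (0.52 to 0.59).

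KCNMA1 (chr10:78629359-79398127, minus strand) encodes the BK pore, opened by calcium and voltage together. It was at 81.9, 79.5, 75.8 and 76.5 CPM in DMSO, 141, 139.7, 109 and 123 in RA, 122, 120.2, 96.6 and 95.6 in PB, and 165, 185, 149.9 and 159 in PB+RA. Each treated group lay above DMSO with no overlap, and PB+RA lay above PB and RA with no overlap. It rose by 0.70 ± 0.095 (adjusted p = 4.17e-05) in RA and 1.04 ± 0.10 (adjusted p = 6.03e-08) in PB+RA. PB gave 0.47 ± 0.095 (adjusted p = 0.00053), under the fold minimum. PB+RA exceeded PB by 0.57 ± 0.094 (adjusted p = 0.000182). The call in RA was lost with the GC and length correction (0.47) and with that correction and the replicate block together (0.46).

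KCNMB4 (chr12:70760070-70828072, plus strand), the beta subunit of BK channels in neurons, was at 0.319, 0.448, 0.443 and 0.774 CPM in DMSO, 1.597, 1.29, 2.298 and 2.39 in RA, 1.67, 0.919, 1.24 and 2.13 in PB, and 3.38, 2.75, 5.25 and 4.82 in PB+RA. The treated groups lay above DMSO with no overlap, and PB+RA lay above both single agents. It rose by 1.59 ± 0.34 (adjusted p = 0.00087) in PB, 1.92 ± 0.33 (adjusted p = 0.000342) in RA and 2.997 ± 0.32 (adjusted p = 4.13e-07) in PB+RA. PB+RA exceeded PB by 1.40 ± 0.29 (adjusted p = 0.00118) and RA by 1.07 ± 0.28 (adjusted p = 0.00387). KCNMB3, another beta subunit, was lower in PB+RA by 0.80 ± 0.24 (adjusted p = 0.00817) at group means of at most 1.58 CPM, and overlaps PIK3CA on the other strand. The replicate block called it lower in PB too, at -0.54 (adjusted p = 0.024), and lower in PB+RA than in RA, at -0.55 (adjusted p = 0.0315). KCNMB1 and KCNMB2 had at most 3 counts in any library.

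The KCNN genes encode small- and intermediate-conductance channels opened by calcium alone. KCNN1 was at 2.91, 3.42, 3.51 and 3.02 CPM in DMSO, 3.93, 4.89, 5.43 and 5.86 in RA, 5.53, 4.84, 7.22 and 6.201 in PB, and 3.499, 3.85, 5.46 and 5.89 in PB+RA. The treated groups lay above DMSO with no overlap except that PB+RA replicate 1, at 3.499 CPM, lay just under the highest DMSO sample, at 3.51. It rose by 0.89 ± 0.18 (adjusted p = 0.000534) in PB, 0.63 ± 0.18 (adjusted p = 0.0119) in RA and 0.51 ± 0.18 (adjusted p = 0.021) in PB+RA. The RA call was lost with the GC and length correction (0.502), with that correction and the replicate block together (0.496) and in replicates 1 and 2 alone (0.47). The PB+RA call was lost with the GC and length correction (0.36), with the replicate block (0.49), with that correction and the replicate block together (0.34), with RLE size factors (0.49), without the filter on low counts (0.46), under DESeq2 (0.48), in replicates 1 and 2 alone (0.19) and on leaving out any of DMSO replicates 1 and 4 and PB+RA replicates 3 and 4 (0.38 to 0.47).

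KCNN4, the intermediate-conductance channel, was called higher in RA by 1.62 ± 0.31 (adjusted p = 0.00085) and in PB+RA by 1.88 ± 0.31 (adjusted p = 4.83e-05). Its CPM was 0.8601, 2.18, 1.62 and 1.44 in RA and 1.59, 2.52, 1.58 and 1.74 in PB+RA against 0.319, 0.693, 0.632 and 0.3097 in DMSO, with no overlap. PB+RA exceeded PB by 1.18 ± 0.30 (adjusted p = 0.00562), a call lost in replicates 1 and 2 alone (1.18). In PB it was called with the replicate block (0.72) and with the GC and length correction and the replicate block together (0.65). KCNN2, at means of 0.098 CPM in DMSO and 0.374 to 0.470 in the treated groups, was called higher in each treated group. That rests on 11 counts over the 4 DMSO libraries and 34 to 43 over the 4 of a treated group. In DMSO its samples were at 0.0774 to 0.126 CPM. It passed the filter on low counts through treated samples alone, so the filter favoured its calls against DMSO. Its PB call was lost in replicates 3 and 4 alone (1.33) and its RA call in replicates 1 and 2 alone (1.81). KCNN3 was called in RA with the replicate block alone, by 0.86 (adjusted p = 0.0489).

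KCNT1 (chr9:138594031-138687354, plus strand) encodes the sodium-activated channel Slack. It was at 229, 179, 202 and 196 CPM in DMSO, 158, 156, 154 and 131 in RA, 515, 455, 526 and 452 in PB, and 605, 517, 456 and 366 in PB+RA. PB and PB+RA lay above DMSO with no overlap, and RA below it with no overlap. It rose by 1.27 ± 0.12 (adjusted p = 4.86e-07) in PB and 1.24 ± 0.12 (adjusted p = 2.74e-07) in PB+RA. RA gave -0.44 ± 0.12 (adjusted p = 0.0124), whose size stayed under the fold minimum, and that fall was called with the GC and length correction (-0.66), with that correction and the replicate block together (-0.66) and in replicates 3 and 4 alone (-0.54). Its interaction term was called with the GC and length correction (0.53), with that correction and the replicate block together (0.52) and on leaving out PB+RA replicate 4 (0.56). PB+RA exceeded RA by 1.68 ± 0.13 (adjusted p = 2.14e-08) and gave -0.03 ± 0.12 (adjusted p = 0.877) against PB. KCNT2, the related channel Slick, was at 11.2, 14.4, 15.3 and 16.5 CPM in DMSO, 16.7, 18.1, 19.4 and 20.3 in RA, 19.8, 18.3, 17.3 and 18.6 in PB, and 16.2, 15.9, 15.96 and 19.2 in PB+RA, and changed by 0.37 ± 0.10 (adjusted p = 0.00686) in PB, 0.37 ± 0.10 (adjusted p = 0.0112) in RA and 0.20 ± 0.10 (adjusted p = 0.102) in PB+RA.

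KCNJ8 (chr12:21917889-21928534, minus strand) encodes a pore of the channels closed by ATP. It was at 111, 140.0, 138 and 138 CPM in DMSO, 96.5, 119, 140.2 and 131 in RA, 113, 139, 128 and 130.1 in PB, and 71.9, 71.4, 77.3 and 82.7 in PB+RA. PB+RA lay below the other groups with no overlap, and the single agents overlapped DMSO. It fell by 0.83 ± 0.10 (adjusted p = 2.65e-06) in PB+RA against DMSO, by 0.78 ± 0.10 (adjusted p = 2.47e-05) against PB and by 0.70 ± 0.10 (adjusted p = 2.77e-05) against RA. PB alone gave -0.05 ± 0.10 (adjusted p = 0.729) and RA alone -0.13 ± 0.10 (adjusted p = 0.365). KCNJ11, the other such pore, was called higher in RA by 1.12 ± 0.27 (adjusted p = 0.00444) and in PB+RA by 1.29 ± 0.27 (adjusted p = 0.000458). Its CPM was 1.23, 1.54, 1.28 and 1.76 in RA and 2.11, 1.37, 1.495 and 1.64 in PB+RA against 0.532, 0.367, 0.696 and 1.05 in DMSO, with no overlap. The RA call was lost in replicates 3 and 4 alone (0.75). Among the partner genes, ABCC9, the sulphonylurea receptor that joins KCNJ8, was lower in PB+RA than in PB (-0.98 ± 0.35 (adjusted p = 0.0402)) and RA (-0.94 ± 0.35 (adjusted p = 0.0349)), calls that were lost without the filter on low counts (-0.98) and on leaving out any of PB replicates 3 and 4 and PB+RA replicates 1 and 2 (-0.88 to -0.74) and on leaving out any of PB+RA replicates 1 and 2 and RA replicates 3 and 4 (-0.84 to -0.72). ABCC9 was called higher in PB with the replicate block (0.58) and in replicates 3 and 4 alone (0.51), and higher in RA with the replicate block (0.52) and in replicates 3 and 4 alone (0.502). Its interaction term was called with the replicate block (-1.55), with the GC and length correction and the replicate block together (-1.41), in replicates 1 and 2 alone (-1.85) and in replicates 3 and 4 alone (-1.27). ABCC8, which joins KCNJ11, was higher in RA (2.001 ± 0.34 (adjusted p = 0.000278)) and PB+RA (2.83 ± 0.33 (adjusted p = 9.82e-07)).

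KCNJ12 and KCNJ2 encode strong inward rectifiers. KCNJ12 was at 15.2, 16.4, 6.32 and 8.67 CPM in DMSO, 16.6, 18.96, 5.43 and 6.13 in RA, 44.6, 46.2, 21.2 and 24.2 in PB, and 42.5, 39.9, 14.9 and 17.9 in PB+RA. Replicates 1 and 2 lay above replicates 3 and 4 in each group, and within each pair of replicates PB and PB+RA lay above DMSO and RA. It rose by 1.55 ± 0.48 (adjusted p = 0.0132) in PB and 1.28 ± 0.48 (adjusted p = 0.0276) in PB+RA. RA gave 0.01 ± 0.48 (adjusted p = 0.987), and PB+RA exceeded RA by 1.27 ± 0.48 (adjusted p = 0.0355). The PB+RA call was lost with the GC and length correction (1.06), without the filter on low counts (1.24) and on leaving out any of DMSO replicates 3 and 4 and PB+RA replicates 1 and 2 (1.00 to 1.16), and the call against RA without the filter on low counts (1.24) and on leaving out any of PB+RA replicates 1 and 2 and RA replicates 3 and 4 (1.00 to 1.08). With the replicate block the PB+RA change was 1.25 (adjusted p = 9.09e-10). KCNJ12 has a near-identical copy, KCNJ18, and how its reads were assigned is uncertain.

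KCNJ2 was at 3.83, 4.44, 4.78 and 5.9996 CPM in DMSO, 6.63, 4.77, 12.6 and 13.8 in RA, 9.74, 8.27, 5.89 and 6.38 in PB, and 4.61, 5.58, 8.61 and 10.3 in PB+RA. In RA and PB+RA replicates 3 and 4 were above replicates 1 and 2, and in PB they were below. It was called in RA (0.98 ± 0.32 (adjusted p = 0.0257)), and that call was lost in replicates 1 and 2 alone (0.46) and on leaving out any of DMSO replicates 1, 2 and 3 and RA replicates 3 and 4 (0.72 to 0.96). Against PB, PB+RA gave -0.09 ± 0.32 (adjusted p = 0.85), which was -0.84 in replicates 1 and 2 alone and 0.59 in replicates 3 and 4 alone, both called. KCNJ14 was not called, and the remaining KCNJ genes were undetermined, KCNJ4 and KCNJ5 having at most 13 and 15 counts in a library.

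**Figure D4:**
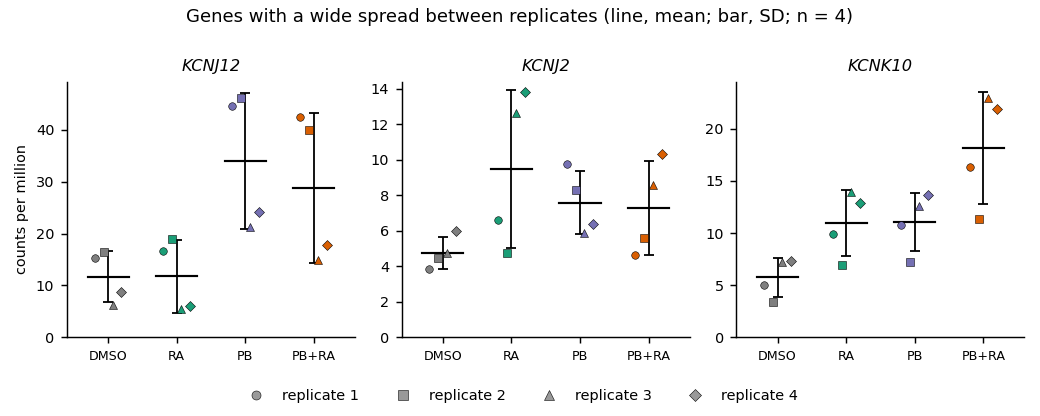
CPM of KCNJ12, KCNJ2 and KCNK10 in each sample, with symbols for the replicate number, lines for the mean and bars for the SD (n = 4). In KCNJ12 replicates 1 and 2 lie above replicates 3 and 4 in each group, and in KCNK10 replicate 2 is the lowest in each group.

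KCNK3 (chr2:26915590-26956288, plus strand) encodes the acid-sensitive background channel TASK. It was at 114, 108, 88.1 and 89.8 CPM in DMSO, 62.5, 50.8, 44.2 and 40.5 in RA, 56.2, 62.8, 53.8 and 53.5 in PB, and 55.6, 65.2, 44.2 and 42.02 in PB+RA. The treated samples lay below DMSO with no overlap, and the 3 treated groups overlapped one another. It fell by 0.82 ± 0.15 (adjusted p = 0.00024) in PB, 1.02 ± 0.15 (adjusted p = 0.000101) in RA and 0.97 ± 0.15 (adjusted p = 2.92e-05) in PB+RA, and PB+RA gave -0.16 ± 0.15 (adjusted p = 0.444) against PB and 0.04 ± 0.15 (adjusted p = 0.818) against RA.

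KCNK10, of the mechanosensitive TREK kind, was at 5.04, 3.42, 7.21 and 7.35 CPM in DMSO, 9.87, 6.95, 13.9 and 12.9 in RA, 10.8, 7.26, 12.6 and 13.6 in PB, and 16.4, 11.4, 22.95 and 21.9 in PB+RA. RA overlapped DMSO through its replicate 2, PB did so as well, and PB+RA lay above DMSO with no overlap. It rose by 0.94 ± 0.29 (adjusted p = 0.0127) in PB, 0.91 ± 0.29 (adjusted p = 0.0233) in RA and 1.62 ± 0.29 (adjusted p = 0.000137) in PB+RA, and PB+RA exceeded RA by 0.71 ± 0.28 (adjusted p = 0.042). The RA call was lost on leaving out any of DMSO replicates 1 and 2 and RA replicates 3 and 4 (0.72 to 0.82), and the call against RA without the filter on low counts (0.68), in replicates 1 and 2 alone (0.70) and on leaving out any of PB+RA replicates 1, 3 and 4 and RA replicates 1 and 2 (0.53 to 0.74). PB+RA was also called above PB with the replicate block (0.68), with the GC and length correction and the replicate block together (0.59), under DESeq2 (0.69), in replicates 3 and 4 alone (0.75) and on leaving out PB+RA replicate 2 (0.85). KCNK2, the related channel, was at 0.696, 0.485, 1.92 and 1.89 CPM in RA and 0.106, 0.122, 0.443 and 0.271 in DMSO, with no overlap, and was called higher there by 2.33 ± 0.55 (adjusted p = 0.00391). PB+RA exceeded PB by 1.98 ± 0.75 (adjusted p = 0.0472) and was below RA by 1.40 ± 0.52 (adjusted p = 0.0305). The call against PB was lost in replicates 1 and 2 alone (1.27) and on leaving out any of PB replicates 1, 2, 3 and 4 and PB+RA replicates 3 and 4 (1.41 to 2.28), and that against RA on leaving out any of PB+RA replicates 1, 2 and 3 and RA replicates 3 and 4 (-1.42 to -1.08). PB+RA was called above DMSO with the replicate block (0.95) and with the GC and length correction and the replicate block together (0.86).

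KCNK15, a TASK relative that forms no current alone, was at 1.35, 1.101, 0.9804 and 1.74 CPM in DMSO, 1.52, 1.54, 1.28 and 1.58 in RA, 3.26, 3.58, 2.71 and 2.44 in PB, and 3.34, 3.85, 2.06 and 3.23 in PB+RA. PB and PB+RA lay above DMSO and RA with no overlap. It rose by 1.22 ± 0.21 (adjusted p = 0.000135) in PB and 1.24 ± 0.21 (adjusted p = 6.55e-05) in PB+RA, and PB+RA exceeded RA by 1.06 ± 0.21 (adjusted p = 0.00045). Its exons overlap those of RIMS4 on the other strand (49.3 CPM on average), which changed by 0.41 in PB and -0.58 in PB+RA. KCNK12, a tandem-pore channel of the THIK kind, was at 1.91, 1.43, 1.14 and 1.12 CPM in DMSO, 1.88, 1.82, 2.11 and 0.811 in RA, 2.402, 2.37, 2.38 and 2.26 in PB, and 2.39, 2.35, 2.06 and 2.05 in PB+RA, and was called in PB (0.75 ± 0.23 (adjusted p = 0.0129)) and PB+RA (0.63 ± 0.23 (adjusted p = 0.0258)). PB and PB+RA lay above DMSO with no overlap. The PB call was lost with the GC and length correction (0.56) and in replicates 1 and 2 alone (0.49), and the PB+RA call with the GC and length correction (0.35), with that correction and the replicate block together (0.35), in replicates 1 and 2 alone (0.47) and on leaving out any of DMSO replicates 2, 3 and 4 and PB+RA replicates 1 and 2 (0.53 to 0.61). The exons of KCNK12 overlap those of another gene too, so its reads may be shared.

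KCNK6, a weak inward rectifier of the tandem-pore kind, was at 0.638, 0.611, 0.696 and 0.813 CPM in DMSO, 0.655, 0.9300, 1.13 and 1.13 in RA, 0.944, 1.79, 0.856 and 1.18 in PB, and 2.31, 3.19, 1.33 and 1.28 in PB+RA. PB+RA lay above DMSO with no overlap. It rose by 1.53 ± 0.31 (adjusted p = 0.000371) in PB+RA and exceeded RA by 1.06 ± 0.30 (adjusted p = 0.00717), a call that was lost in replicates 3 and 4 alone (0.20). With the replicate block it was called in PB too, at 0.75 (adjusted p = 0.0338), and above PB in PB+RA, at 0.74 (adjusted p = 0.0203). KCNK7 was lower in RA by 1.27 ± 0.37 (adjusted p = 0.0139) and KCNK5 lower in PB+RA by 0.90 ± 0.37 (adjusted p = 0.0428), both at means of at most 1.21 CPM. The KCNK5 call was lost in replicates 3 and 4 alone (-0.47) and on leaving out any of DMSO replicates 1 and 2 and PB+RA replicates 1, 3 and 4 (-0.93 to -0.61). KCNK5 was also lower in PB+RA than in RA, by 1.07 ± 0.37 (adjusted p = 0.0225), and that call was lost in replicates 1 and 2 alone (-0.79) and on leaving out any of PB+RA replicates 1 and 3 and RA replicate 3 (-0.97 to -0.94). The replicate block called KCNK7 in PB+RA lower than in PB, at -0.70 (adjusted p = 0.0308), and higher than in RA, at 0.88 (adjusted p = 0.0206).

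Setting PB+RA against each single agent asked what the second agent added. Against PB, 8 of the 51 genes were called higher and 3 lower, beside 9.02% and 7.27% of all tested genes, and the median log2 fold change was -0.03 (-0.01 over all genes). The genes higher were KCNA2, KCNA3, KCNG4, KCNJ11, KCNK2, KCNMA1, KCNMB4 and KCNN4, and those lower were KCNAB3, KCNG3 and KCNJ8. The calls of KCNG3, KCNG4, KCNJ8, KCNJ11, KCNMA1 and KCNMB4 held under each alternative run, though that of KCNG4 rests on 6 counts over the 4 PB libraries. With the replicate block the counts were 11 higher and 7 lower, and with the GC and length correction 8 and 6. Against RA, 16 were called higher and 6 lower, beside 14.9% and 14.1%, with a median of 0.33 (0.00 over all genes). Without PB+RA replicate 1 that count of 22 fell to 13.

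The interaction term asked whether the change in PB+RA differed from the sum of the single-agent changes on the log2 scale. It was called above that sum for 1 gene and below it for 3, beside 0.415% and 3.02% of all tested genes, and its median was -0.23 over the 51 genes and -0.04 over all genes. KCNJ8 was below the sum by 0.65 ± 0.15 (adjusted p = 0.0145), with a called fall in PB+RA and none in PB or RA, and this was lost in replicates 1 and 2 alone (-0.60). KCNN1 was below it by 1.01 ± 0.25 (adjusted p = 0.0262), with a mean in PB+RA under those in PB and RA, and KCNT2 by 0.53 ± 0.15 (adjusted p = 0.0433). KCNK3 was above the sum, at 0.86 ± 0.21 (adjusted p = 0.0253), with means of 49.5, 56.6 and 51.8 CPM in RA, PB and PB+RA.

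These interaction calls were close to the threshold. KCNK3 was lost on leaving out any of DMSO replicates 1 and 2, PB replicate 4, PB+RA replicate 1 and RA replicate 3 (0.83 to 0.85), and KCNN1 with the GC and length correction (-0.91), in replicates 1 and 2 alone (-0.99) and on leaving out any of DMSO replicates 1 and 4, PB replicates 3 and 4, PB+RA replicates 1 and 2 and RA replicates 3 and 4 (-0.98 to -0.86). KCNT2 was lost with the GC and length correction (-0.45), with that correction and the replicate block together (-0.45), with RLE size factors (-0.503), without the filter on low counts (-0.51), in replicates 1 and 2 alone (-0.69), in replicates 3 and 4 alone (-0.33) and on leaving out any of DMSO replicates 1, 2 and 3, PB replicates 1, 2, 3 and 4, PB+RA replicates 1, 2 and 3 and RA replicates 2, 3 and 4 (-0.54 to -0.39). With the replicate block the counts were 2 above and 7 below the sum, with KCND3 at 0.91 (adjusted p = 0.000417), KCNAB1 at -0.65 (adjusted p = 6.45e-05), KCND1 at -0.61 (adjusted p = 0.041), KCNG1 at -0.60 (adjusted p = 0.013) and KCNG3 at -1.47 (adjusted p = 0.0309) added. With the GC and length correction they were 2 above and 1 below. The number of calls was 1 without DMSO replicate 1, PB replicate 4, PB+RA replicate 1 or RA replicate 3, and 2 without PB replicate 3, PB+RA replicate 2 or RA replicate 4.

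**Figure D5:**
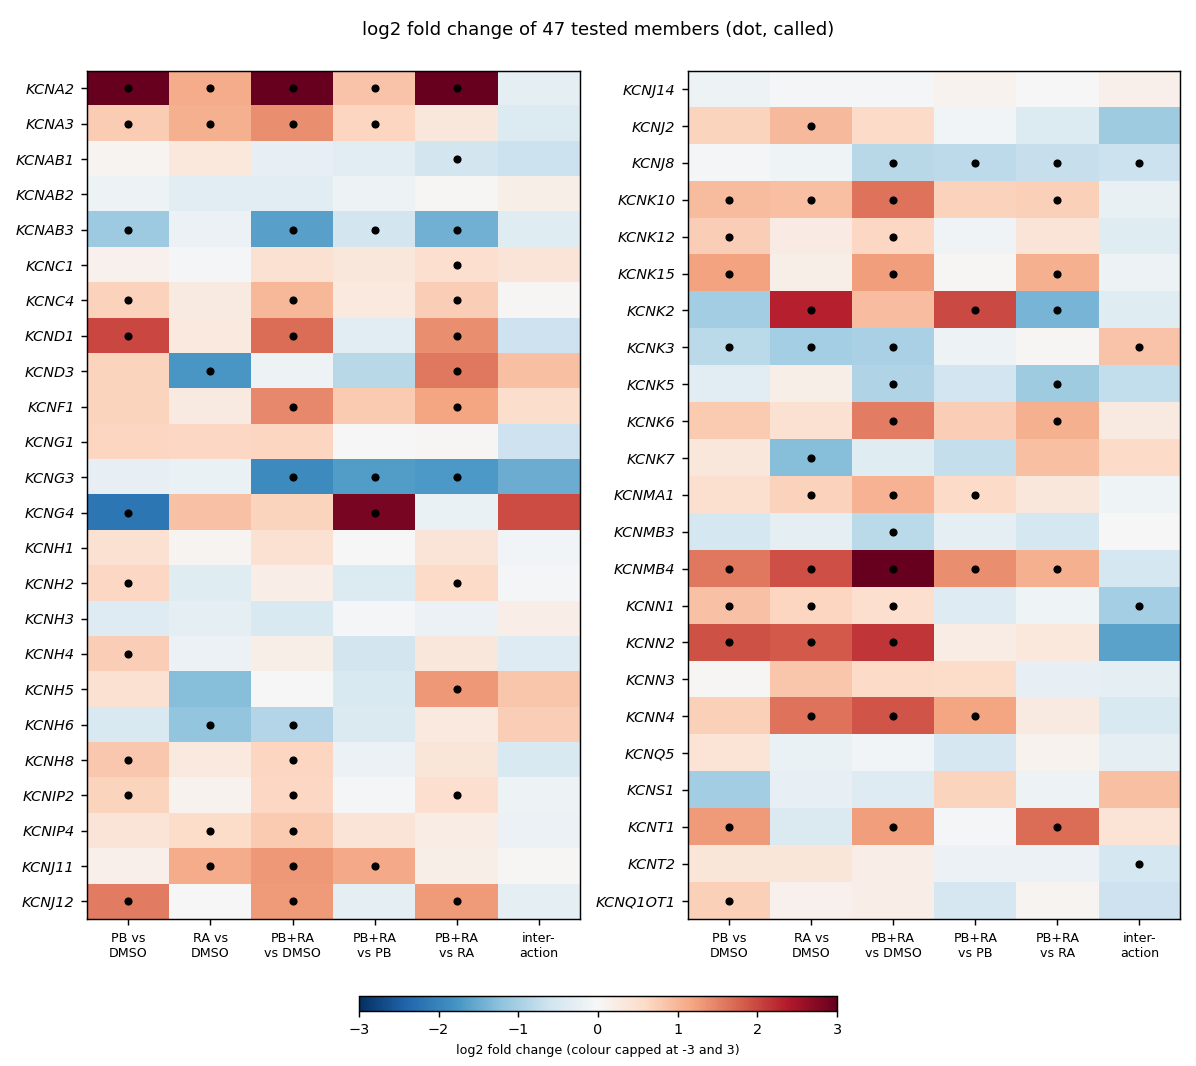
Log2 fold change of 47 of the 51 tested members in 6 comparisons, ordered by subfamily. Red is higher and blue lower, the colour is capped at -3 and 3, and a black dot marks a call. Rows with dots under PB and PB+RA but not RA include KCND1, KCNT1 and KCNC4, and the interaction column holds 4 dots.

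Low counts left 36 of the 87 genes undetermined. Their largest count in any library was 1 to 15, 19 of them had at most 3 counts in each library, and the highest value among them was 0.596 CPM. A count of 3 corresponds to 0.0949 to 0.154 CPM at these depths, and the limits cover counting error only. All KCNE and KCNV genes were in this set, as were the G-protein-gated rectifiers KCNJ3, KCNJ5, KCNJ6 and KCNJ9, the tandem-pore genes KCNK1, KCNK4, KCNK9, KCNK13 and KCNK18, and KCNB2 and KCND2. KCNJ4 had 32 counts summed over the 4 DMSO libraries, 31 over those of RA, 5 with PB and 10 with PB+RA. In the same order KCNS3 had 16, 13, 1 and 2, and KCNJ5 4, 26, 7 and 22. Of the tested genes 9 were called in no comparison, and 12 were called but stayed under a mean of 2 CPM in each group.

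Among 27 genes listed as partners or regulators of these channels, 21 were tested, and 7 were called higher and 2 lower in PB, 4 and 1 in RA, and 7 and 5 in PB+RA. Beside these counts, 16.9% of all tested genes were higher and 11.3% lower in PB, 10.8% and 2.54% in RA, and 24.0% and 17.9% in PB+RA. DPP6, which joins KCND pores and speeds their gating, averaged 25.7 ± 4.48 CPM without treatment and 62.9 ± 7.01 with PB, 90.5 ± 10.4 with RA and 149 ± 19.6 with both, log2 rises of 1.29 ± 0.13 (adjusted p = 5.55e-07), 1.81 ± 0.13 (adjusted p = 9.56e-08) and 2.51 ± 0.13 (adjusted p = 1.26e-10). CNTNAP2, which clusters KCNA channels along axons, fell by 1.00 ± 0.19 (adjusted p = 0.000378) in PB and 2.61 ± 0.20 (adjusted p = 1.94e-08) in PB+RA, from 174 ± 33.9 CPM to 87.2 ± 22.7 and 28.9 ± 4.78. LINGO1, a membrane protein that binds BK channels, rose by 1.53 ± 0.30 (adjusted p = 0.000617) in PB, 1.68 ± 0.30 (adjusted p = 0.00066) in RA and 3.70 ± 0.31 (adjusted p = 5.68e-08) in PB+RA. REST, which represses many neuronal genes, was higher in RA (1.01 ± 0.29 (adjusted p = 0.012)) and higher in PB+RA than in PB (1.06 ± 0.30 (adjusted p = 0.0113)). In PB it gave -0.69 ± 0.30 (adjusted p = 0.0643), a fall that was called with the GC and length correction (-0.75), with the replicate block (-0.68), with that correction and the replicate block together (-0.74), under DESeq2 (-0.72), in replicates 1 and 2 alone (-0.61), in replicates 3 and 4 alone (-0.78) and on leaving out any of DMSO replicates 1 and 2 and PB replicate 4 (-0.85 to -0.81). Between PB+RA and RA it gave -0.64 ± 0.28 (adjusted p = 0.0677), which was called with the GC and length correction (-0.62), with the replicate block (-0.68), with that correction and the replicate block together (-0.65), in replicates 1 and 2 alone (-0.98) and on leaving out any of PB+RA replicate 4 and RA replicate 1 (-0.88 to -0.76). RCOR1, a corepressor that works with REST, was lower in PB+RA by 0.61 ± 0.075 (adjusted p = 1.84e-06).

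Of the ankyrins, which anchor membrane proteins to the cell skeleton, ANK2 rose by 0.57 ± 0.12 (adjusted p = 0.00107) in PB and 0.52 ± 0.12 (adjusted p = 0.00152) in PB+RA. The PB call was lost with the GC and length correction (0.34), with that correction and the replicate block together (0.34), in replicates 3 and 4 alone (0.42) and on leaving out any of DMSO replicate 2 and PB replicate 1 (0.46 to 0.497), and the PB+RA call with the GC and length correction (0.28), with that correction and the replicate block together (0.28), without the filter on low counts (0.47), under DESeq2 (0.497), in replicates 1 and 2 alone (0.47) and on leaving out any of DMSO replicates 1 and 2 and PB+RA replicates 1 and 4 (0.41 to 0.49). ANK3 was lower in PB+RA than in RA by 0.74 ± 0.26 (adjusted p = 0.0254), a call lost on leaving out any of PB+RA replicates 1 and 2 and RA replicates 3 and 4 (-0.65 to -0.61). It was called lower in PB with the GC and length correction (-0.60), with that correction and the replicate block together (-0.58) and in replicates 3 and 4 alone (-0.65), and lower in PB+RA with the GC and length correction (-0.68), with that correction and the replicate block together (-0.68), in replicates 1 and 2 alone (-0.54) and on leaving out PB+RA replicate 4 (-0.77). KCTD12, an auxiliary subunit of GABA-B receptors, fell by 0.93 ± 0.29 (adjusted p = 0.0223) in RA and 0.80 ± 0.29 (adjusted p = 0.0237) in PB+RA, from 82.1 ± 25.1 CPM to 43.5 ± 12.2 and 48.2 ± 17.1. The call in RA was lost in replicates 1 and 2 alone (-0.84) and on leaving out any of DMSO replicates 3 and 4 and RA replicate 2 (-0.83 to -0.76), and that in PB+RA on leaving out any of DMSO replicates 3 and 4 and PB+RA replicates 1 and 2 (-0.72 to -0.68). AMIGO1, a cell adhesion protein, rose by 0.58 ± 0.12 (adjusted p = 0.000737) in PB, and that was lost with the GC and length correction (0.49), with that correction and the replicate block together (0.49) and in replicates 3 and 4 alone (0.42). HCN2, a cation channel opened by hyperpolarisation, was higher in PB+RA than in RA by 0.62 ± 0.091 (adjusted p = 2.46e-05).

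The lysosomal potassium channel gene TMEM175 rose by 0.92 ± 0.13 (adjusted p = 1.79e-05) in PB and 1.12 ± 0.13 (adjusted p = 1.16e-06) in PB+RA, and TMEM38A, a cation channel of the endoplasmic reticulum, by 1.53 ± 0.30 (adjusted p = 0.000472) and 1.40 ± 0.30 (adjusted p = 0.000662). TMEM38B, its relative, fell by 0.83 ± 0.14 (adjusted p = 7.45e-05) and 1.03 ± 0.14 (adjusted p = 4.81e-06). The summed level of the listed genes was 941 to 1023 CPM in DMSO and 1013 to 1165 in PB+RA.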

How the data were processed

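Polyadenylated RNA from 16 cultures of SK-N-BE(2)C (4 groups of 4) was sequenced as stranded paired-end libraries of 50 bases. Per the labels and the study's methods, the authors trimmed the reads with Trim Galore 0.6.4 at a phred minimum of 20, mapped them to hg19 with STAR 2.6.1d and took its gene counts, and they ran DESeq2 1.32.0 for their own comparisons. The deposited counts are whole reads per gene, not normalised, and the deposited CPM values equal these counts scaled to a library total of 1000000, to within rounding. The authors' table of fold changes and p-values was not used. Which strand column of the counts was kept is not given in the sources used here, so reads of genes that overlap on opposite strands may be shared.

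The potassium channel genes and the other gene lists were chosen with earlier results of these data known. Counts were normalised by TMM (factors of 0.983 to 1.02), filtered by edgeR's filterByExpr over the groups and fitted by its robust quasi-likelihood test (edgeR 4.0.16, R 4.3.3) over the 16 samples, with 1 coefficient per group. Adjusted p-values are Benjamini-Hochberg values over 15415 genes, calls need an adjusted p below 0.05 and a log2 fold change beyond 0.5, and each standard error is the size of the log2 change over the square root of its F statistic. The interaction is the change in PB+RA minus the sum of both single-agent changes. Genes named with values per sample were those called in at least 1 comparison with a mean of at least 2 CPM in at least 1 group, the other tested genes were given by ranges, counts or their fitted change, and genes that failed the filter were taken as undetermined. Some members that this rule would name are not reported here, but they stay in the fit and in all counts. Partner genes were named where called with a mean of at least 2 CPM in a group.

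Depth was 19515779 to 31620821 counts, at which 3 counts are 0.0949 to 0.154 CPM. Alternatives were RLE size factors, a summed count above 10 as the sole filter, DESeq2 1.42.0, no fold minimum, the replicate number as a block, a correction for GC content and exon length (95.2% of tested genes and all 51 tested members had both), both of these together, replicates 1 and 2 or 3 and 4 alone, and leaving out each library. Per the study's methods, replicates were other passages plated in independent experiments. Samples that share a number deviated together from their group means in all 24 such pairs of samples (r of 0.330 to 0.573 across genes). Samples of different numbers did so too within replicates 1 and 2 and within replicates 3 and 4. For example, PB replicate 4 had r of 0.447 with PB+RA replicate 3 and 0.435 with PB+RA replicate 4. Between these sets the deviations were opposed (r of -0.324 for DMSO replicate 1 and PB replicate 3). How far the block by number reflects these sets of replicates was not tested. The fit was also run on simulated counts. These were drawn without an effect of the replicate number, so that run does not bear on the pairing of samples. Exon lengths and positions come from GENCODE v44 lifted to GRCh37, which is the build of hg19.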

Additional observations from a re-analysis of the deposited data

Results flagged for a closer look

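In 4 of 120 groups of 4 samples, 1 sample lay apart from the other 3 by Dixon's 95% criterion, which chance alone flags in about 1 of 20 groups. KCNAB3 was at 3.19 CPM in PB+RA replicate 3 against 2.23, 2.30 and 2.31 in the others, and KCNT2 at 19.2 CPM in PB+RA replicate 4 against 15.94, 15.96 and 16.2. KCNJ8 was low in DMSO replicate 1, at 111 CPM against 138, 138 and 140, and KCNT1 low in RA replicate 4, at 131 CPM against 154, 156 and 158.

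In 4 genes the effect of one agent was called as differing with the presence of the other, by the interaction term of the edgeR quasi-likelihood fit on the log2 scale. These were KCNJ8 (-0.65, adjusted p = 0.0145), KCNK3 (0.86, adjusted p = 0.0253), KCNN1 (-1.01, adjusted p = 0.0262) and KCNT2 (-0.53, adjusted p = 0.0433). The calls of KCNK3, KCNN1 and KCNT2 were lost in several of the alternative runs given above, and that of KCNJ8 in replicates 1 and 2 alone.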

How the results depend on the processing

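The count of 11 genes called for PB+RA against PB became 18 with the replicate block, 20 with the block and the GC and length correction, and 17 in replicates 3 and 4 alone. The 4 interaction calls became 9 with the block and 10 with the block and that correction. With 1 library left out, counts ranged over 22 to 26 for PB, 14 to 17 for RA, 27 to 30 for PB+RA, 10 to 14 for PB+RA against PB, 13 to 22 for PB+RA against RA, and 1 to 5 for the interaction. The other alternatives kept each count within 1.5 times the main one. The block moved no other count of calls by over 1.5 times.

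Over 432 values (72 genes in 6 comparisons), the block ended 2 calls and added 32, the GC and length correction ended 20 and added 17, DESeq2 ended 5 and added 4, and leaving out a library ended 157 calls among 4032 refitted values. KCNJ2 in PB+RA against PB reversed, from -0.09 to 0.59 in replicates 3 and 4 alone. The causes were not tested. The median of all genes stayed between -0.094 and 0.065 in each setting. Genes under 2 CPM rest on few counts, and changes of the 36 undetermined genes were not tested.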
